A study of Homo sapiens with 12 samples.

Results

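The genes described here encode the machinery that shortens the poly(A) tail of messenger RNA, removes its cap, degrades its body and represses it through small RNAs and RNA-binding proteins. They were chosen as 40 listed symbols, and 39 of them were found in the deposited table of 59087 features. CNOT2, a partner of CNOT3 in the CCR4-NOT complex, was not analysed here. All 39 passed the filter on low counts in each comparison. In cytoplasmic decay, PAN2-PAN3 and then the CCR4-NOT complex trim the tail, the DCP2 enzyme with its activators removes the cap, and XRN1 digests the transcript from its 5′ end, while the exosome works from the 3′ end. Argonaute proteins guided by microRNAs recruit CCR4-NOT through TNRC6 proteins, and BTG and TOB proteins, Pumilio proteins and DDX6 connect further transcripts to the same complex. In neurons FMRP, the protein made from FMR1, binds many mRNAs and is found in granules with Argonaute, MOV10 and Staufen proteins.

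Poly(A) RNA was sequenced from the human neuroblastoma line SH-SY5Y, an established cell line, as 12 libraries in 4 groups of 3. Wild-type cells in heavy SILAC medium, wild-type cells in light medium, FMR1-knockout cells in heavy medium and FMR1-knockout cells in light medium were each kept in their medium for 2 weeks. Heavy medium carried lysine and arginine labelled with stable isotopes, light medium their ordinary forms, and all groups received dialyzed fetal bovine serum. In each knockout group the 3 libraries are 3 independently generated lines, so a line is present once per medium, and no source used here says how the lines were edited. The wild-type libraries carry only a number, and nothing says that they came from separately derived cells. The p-values therefore measure the spread between these libraries, and loss of FMR1 cannot be told apart from the making and passage of a line.

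Libraries held 25935152 to 40257027 counts, and the members' counts lay between 352 and 47872 per library. Levels are CPM, counts scaled to 1000000 per library with TMM factors of 0.981 to 1.024. FMR1 mRNA stood at 35.9 to 41.96 CPM in wild type. It stood at 22.4, 12.8 and 7.19 CPM in lines 1, 2 and 3 in heavy medium. In light medium the same lines stood at 11.4, 11.5 and 9.05 CPM, so that every knockout library was below every wild-type library and line 1 in heavy medium was nearest to them. Of 13 markers of sympathetic neuroblasts 12 exceeded 1 CPM on average in either genotype, TH being the exception, and their summed level was 9960 to 10919 CPM in wild type and 7953 to 10396 CPM in knockout. SOX10 and GFAP of glia and PTPRC and CD3E of immune cells were listed at 0 in every library. The 9 mesenchymal markers summed to 240.3 to 256 CPM in wild type and 145 to 199 CPM in knockout, with PDGFRA, PDGFRB and FN1 lower on average, VIM higher (22 and 49.7 CPM) and DCN at 0. Mitochondrial transcripts took 9.53% to 10.53% and 10.87% to 12.16% of counts. The part of these shifts in the results below was not tested, and in bulk RNA fewer cells with a transcript and less of it per cell cannot be told apart.

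In wild-type cells the members spanned a wide range of abundance, here given per kilobase of annotated exon so that genes can be set side by side. The poly(A)-binding protein gene PABPC1 was highest at 246 CPM per kb, followed by STAU1 at 49.8 and PABPC4 at 38.6 CPM per kb. Most CCR4-NOT genes formed a middle band, with CNOT8 at 27.3, CNOT9 at 23.3, CNOT1 at 21.4, CNOT7 at 16.2 and CNOT6 at 15.3 CPM per kb. CNOT4 and CNOT6L were lower, at 3.08 and 2.75 CPM per kb. XRN1 at 1.68 and TNRC6B at 0.916 CPM per kb were the least abundant of the 39. The exon lengths are unions over annotated transcripts, so genes with long rarely used exons are placed too low on this scale.

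**Figure D1:**
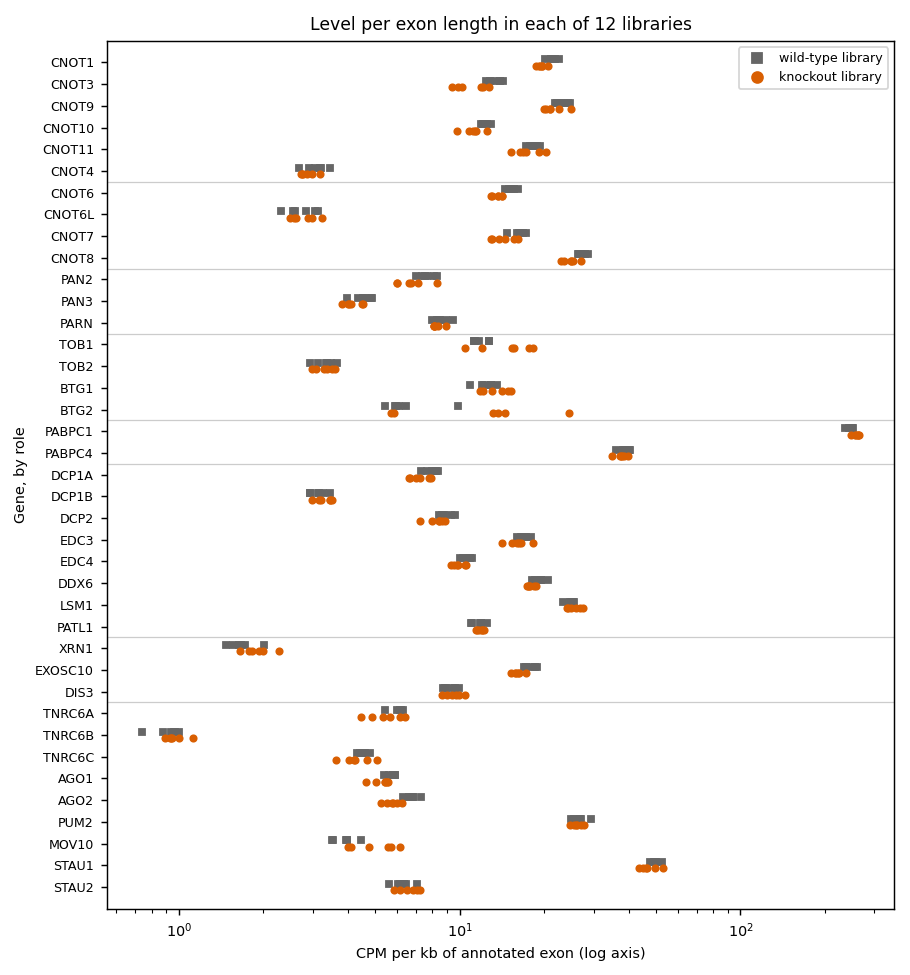
Level of each of the 39 genes in CPM per kb of annotated exon (log axis), grouped by role, with 6 wild-type libraries as squares and 6 knockout libraries as circles. PABPC1 stands apart at the top of the scale, and for most genes the knockout libraries lie within or beside the wild-type range, while BTG2 spreads most.

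Over both media 5 subunits of CCR4-NOT, the exosome gene EXOSC10 and the Argonaute gene AGO2 were modestly lower in knockout, and the helicase gene MOV10 was higher. Of the 39 members 8 passed (edgeR quasi-likelihood test, adjusted p under 0.05 over 16704 genes), 7 of them lower and 1 higher in knockout. Of all genes tested 24.8% passed, 9.78% lower and 15% higher, so the share of members called was near that of all genes, while the calls leaned the other way. The 7 lower genes were CNOT1, CNOT3, CNOT6, CNOT7, CNOT8, EXOSC10 and AGO2. The median log2 fold change was -0.07 over the 39 and 0.003 over all genes tested. All 7 falls were under 20% of the wild-type level, with knockout means between 82.3% and 91.3% of the wild-type mean. Heavy and light counts of each line were then added into 1 sample. Wild-type heavy and light libraries of the same number were also added, although the numbers are names only, so wild type went from 6 samples to 3. On these summed counts 0 of 39 passed in edgeR, where 1.53% of all genes passed. The smallest adjusted p was that of AGO2, 0.0737. How much of the drop comes from the fewer wild-type samples was not tested. With libraries kept apart, the count was 15 without line 3 heavy and 4 without line 2 heavy, line 1 light or line 2 light. It was 5 without wild-type heavy 2, light 1, light 2 or light 3. It was 19 without line 3 altogether, 3 without line 2 and 5 without line 1.

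Promoter sequence is shown for the 2 CCR4-NOT genes of which every knockout library lay below the wild-type range of its medium, CNOT3 and CNOT6, and for BTG2, which went the other way in lines 1 and 2. Each is the 250 bases before the gene's RefSeq start on GRCh38.p14, written 5′ to 3′. Capitals mark every GC box (GGGCGG) and CCAAT box (CCAAT) on either strand.
CNOT3 (chr19:54137512-54137761, plus strand): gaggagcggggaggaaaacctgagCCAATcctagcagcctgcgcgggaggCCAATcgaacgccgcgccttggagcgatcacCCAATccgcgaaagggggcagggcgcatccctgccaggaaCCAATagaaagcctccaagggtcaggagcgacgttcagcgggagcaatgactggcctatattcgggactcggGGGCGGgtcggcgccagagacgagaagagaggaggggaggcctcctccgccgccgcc
CNOT6 (chr5:180494129-180494378, plus strand): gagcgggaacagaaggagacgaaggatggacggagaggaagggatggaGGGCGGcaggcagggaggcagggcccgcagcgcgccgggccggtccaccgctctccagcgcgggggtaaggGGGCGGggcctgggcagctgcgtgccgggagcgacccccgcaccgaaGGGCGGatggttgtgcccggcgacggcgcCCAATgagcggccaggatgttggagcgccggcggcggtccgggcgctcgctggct
BTG2 (chr1:203305269-203305518, plus strand): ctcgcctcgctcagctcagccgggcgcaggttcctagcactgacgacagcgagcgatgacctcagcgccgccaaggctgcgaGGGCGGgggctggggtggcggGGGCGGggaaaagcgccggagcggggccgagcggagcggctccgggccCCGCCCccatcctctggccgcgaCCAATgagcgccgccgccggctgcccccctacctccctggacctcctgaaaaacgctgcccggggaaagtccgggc
CNOT3 carries 4 CCAAT boxes and 1 GC box in this window. CNOT6 and BTG2, which moved in opposite directions, each carry 3 GC boxes and 1 CCAAT box, so these letters do not separate them. The RefSeq promoter table matched 32 of the 39 members, and CNOT1, CNOT7, PABPC1, PABPC4, LSM1, AGO2 and STAU2 had no entry. The same search on both strands, in which hits of different motifs may overlap, found a GC box in 24 of 32 members (75%) against 42.6% of 35114 promoters and a CCAAT box in 14 (43.8%) against 32%. The ETS core CCGGAAG was in 7 members (21.9%, against 8.52%), the NRF1 motif in 4 (12.5%, against 5.07%) and TATAAA in 1 (3.12%, against 10.7%). The p53 half-site consensus, searched by its usual degenerate letters, was in 0 of 32, against 5.57%. Members' windows had a median GC content of 63.6% against 58% over all promoters, and a match describes the letters and not a bound site. The 35114 promoters were not limited to genes expressed in these cells, as the members are. The shares therefore do not set the members apart from other expressed genes.

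CNOT1, the scaffold on which the CCR4-NOT complex is built (ENSG00000125107.17, chromosome 16, 58519951 to 58629886, minus strand, GRCh38), read 245, 230.5 and 219 CPM (heavy) and 237, 230.3 and 232 CPM (light) in wild type. Lines 1, 2 and 3 read 214, 203 and 224 CPM (heavy) and 209, 208 and 214 CPM (light). Line 3 in heavy medium lay in the wild-type range and the other 5 knockout libraries were below it. The fall was 232 ± 8.51 to 212 ± 7.22 CPM (SD over 6 libraries each, the knockout ones being 2 per line). Its log2 fold change was -0.13 (SE 0.038, adjusted p = 0.0247). That call was lost without line 2 heavy, line 1 light or line 2 light (adjusted p up to 0.0572). It was also lost on counts summed per line (edgeR adjusted p = 0.134).

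CNOT3, which with CNOT2 forms the NOT module at the carboxy-terminal end of CNOT1 (ENSG00000088038.18, chromosome 19, 54137717 to 54155708, plus strand), had the largest change of the complex. Wild-type libraries stood at 85.3, 97.8 and 95.4 CPM (heavy) and 88.4, 95.8 and 91.5 CPM (light). The 3 lines stood at 83.4, 67.6 and 82.3 CPM (heavy) and 70.2, 64.9 and 87.8 CPM (light). Every knockout library was below the wild-type libraries of its medium, line 2 was lowest in both media, and line 3 in light medium was close to wild type. The mean went from 92.4 ± 4.85 to 76.03 ± 9.61 CPM (log2 fold change -0.28, SE 0.074, adjusted p = 0.0164), and without line 2 the adjusted p was 0.065.

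The remaining scaffold and module subunits had negative fold changes that did not pass over both media. CNOT9, a subunit that offers docking pockets to TNRC6 and other repressors, was at 131, 125 and 121 CPM (heavy) and 128, 118 and 116 CPM (light) in wild type. It was at 107, 106 and 131 CPM (heavy) and 111, 111 and 119.7 CPM (light) in lines 1, 2 and 3, where line 3 in heavy medium was above every wild-type library and lines 1 and 2 were below (log2 fold change -0.10, SE 0.055, adjusted p = 0.177). CNOT10 and CNOT11 form a module at the amino-terminal end of CNOT1. CNOT10 gave 59.5, 60.9 and 58.6 CPM (heavy) and 62.8, 57.7 and 58.5 CPM (light) in wild type. In the 3 lines CNOT10 gave 52.5, 47.3 and 60.8 CPM (heavy) and 54.97, 54.3 and 55.2 CPM (light) (log2 fold change -0.14, SE 0.054, adjusted p = 0.0742). For this gene 5 knockout libraries were below every wild-type value and line 3 in heavy medium was not. CNOT11 had wild-type values of 53.8, 51.8 and 47.9 CPM (heavy) and 52.6, 50.6 and 49.7 CPM (light). Its values in the lines were 47, 42.6 and 56.6 CPM (heavy) and 45.8, 48 and 53.5 CPM (light) (log2 fold change -0.06, SE 0.066, adjusted p = 0.515). Line 3 in heavy medium lay above every wild-type library for CNOT11, and line 1 in both media and line 2 in heavy medium lay below. CNOT4, a ubiquitin ligase only loosely bound to the human complex, ranged from 18.7 to 24.2 CPM in wild type and from 19.1 to 22.4 CPM in knockout. All knockout libraries were inside the range of all wild-type libraries, though those in light medium were below the light ones.

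Of the 4 catalytic subunits 3 fell and CNOT6L did not. CNOT6 and CNOT6L are paralogous deadenylases of one nuclease family, and CNOT7 and CNOT8 are a second pair of another family, so that a complex holds 1 of each pair. CNOT6 (ENSG00000113300.11, chromosome 5, 180494412 to 180578405, plus strand) read 106, 98.9 and 95.2 CPM (heavy) and 100.1, 101 and 103 CPM (light) in wild type. Its knockout values were 93.2, 90.4 and 90.1 CPM (heavy) and 84.9, 85.6 and 93.5 CPM (light), all below the wild-type libraries of their medium (log2 fold change -0.17, SE 0.041, adjusted p = 0.0122). CNOT6L ranged from 21.7 to 29.4 CPM in wild type and from 23.3 to 30.4 CPM in knockout (log2 fold change 0.03, SE 0.077, adjusted p = 0.83). The difference between the 2 paralogs was not tested.

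CNOT7 (ENSG00000198791.11, chromosome 8, 17224964 to 17246878, minus strand), the subunit that BTG and TOB proteins bind, stood at 189, 179 and 161 CPM (heavy) and 184, 175 and 178 CPM (light) in wild type. Lines 1, 2 and 3 stood at 159, 143 and 176 CPM (heavy) and 141, 151 and 171 CPM (light). Lines 1 and 2 were below all wild-type libraries. Line 3 was among the wild-type libraries in heavy medium and below the light ones in light medium (log2 fold change -0.18, SE 0.061, adjusted p = 0.0428). CNOT8 (ENSG00000155508.13, chromosome 5, 154857553 to 154876793, plus strand) gave 110.2, 112 and 105 CPM (heavy) and 107, 106 and 103 CPM (light) in wild type. Its values were 98.01, 89.96 and 106 CPM (heavy) and 92.4, 97.6 and 99.8 CPM (light) in the lines, and line 3 in heavy medium was the one within the wild-type range (log2 fold change -0.14, SE 0.044, adjusted p = 0.0363). Both calls were lost when any of 9 of the 12 libraries was left out, the exceptions being wild-type heavy 3 and the 2 of line 3 (adjusted p up to 0.0944 for CNOT7 and 0.0834 for CNOT8). They were also lost in limma-voom with the line as a correlated block (adjusted p = 0.0606 and 0.0586). Genes that overlap CNOT7 and CNOT8 on the other strand, VPS37A and FAXDC2, could share reads with them, since no source used here gives the strand setting of the counting.

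**Figure D2:**
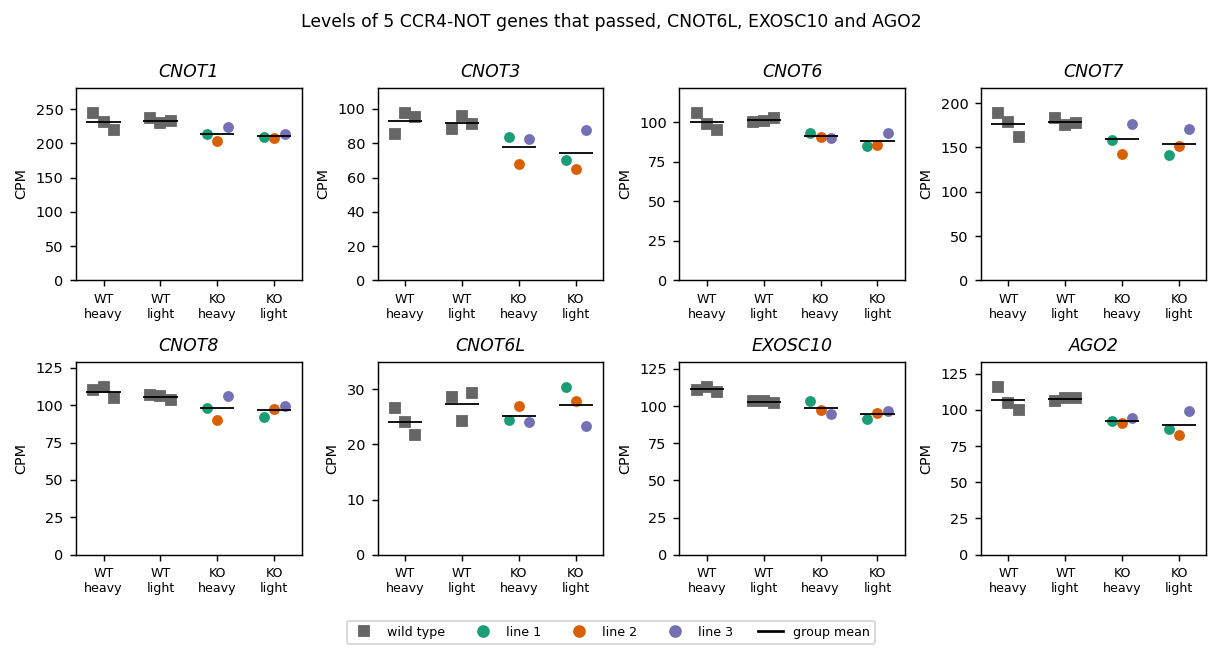
CPM in each of the 12 libraries, with axes from 0, for the 5 CCR4-NOT genes that passed, for CNOT6L and for EXOSC10 and AGO2, with squares for wild type, circles coloured by knockout line and bars for group means. The differences are small beside the level, line 3 lies among wild type for CNOT7 in heavy medium and below it in light medium, and the genotypes overlap for CNOT6L.

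PAN2-PAN3 trims long tails before CCR4-NOT acts, and PARN is a poly(A)-specific ribonuclease that also matures small nuclear and telomerase RNAs. None of the 3 passed over both media. PAN2, the nuclease, was at 53.4, 58.8 and 60.5 CPM (heavy) and 50.9, 55.7 and 54.9 CPM (light) in wild type. The lines were at 60.3, 51.6 and 43.7 CPM (heavy) and 48.8, 43.8 and 48.2 CPM (light) (log2 fold change -0.17, SE 0.069, adjusted p = 0.0799). Lines 1 and 2 in heavy medium were within the range of all wild-type libraries, though line 2 was below the heavy ones. The other 4 knockout libraries were below that range. PAN2 was the one member that passed in line 3 (log2 fold change -0.28, adjusted p = 0.0252). PAN3, the PABP-binding partner, ranged from 25.2 to 30.9 CPM in wild type and 24.2 to 28.7 CPM in knockout, and PARN from 35.1 to 41.6 and 35.5 to 39.2 CPM.

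The BTG and TOB proteins are antiproliferative adaptors that tie CNOT7 and CNOT8 to target mRNAs. TOB1 and BTG2 passed as higher in lines 1 and 2 and BTG1 in line 1, and none passed in line 3. Of all genes tested 14.5% passed as higher in line 1 and 23.2% in line 2. A difference between these adaptors and the CCR4-NOT genes was not tested. Over both media none of the 4 passed. TOB1 (ENSG00000141232.4, chromosome 17, 50862223 to 50867978, minus strand) had wild-type values of 31.95, 28.4 and 28.5 CPM (heavy) and 29.5, 28.6 and 32.1 CPM (light). Lines 1, 2 and 3 had 38.6, 46.2 and 30.2 CPM (heavy) and 44.4, 39.4 and 26.4 CPM (light), so lines 1 and 2 were above every wild-type library and line 3 was not (log2 fold change 0.33, SE 0.12, adjusted p = 0.0647). TOB1 passed in line 1 (log2 fold change 0.47, adjusted p = 0.000213) and in line 2 (0.51, adjusted p = 9.71e-06), and stood at -0.08 in line 3 (adjusted p = 0.594). BTG2, an early-response gene that p53 is known to induce (ENSG00000159388.5, chromosome 1, 203305491 to 203309602, plus strand), showed the widest spread. It read 16.2, 16.8 and 17.7 CPM (heavy) and 14.9, 16.3 and 27.2 CPM (light) in wild type, where light 3 stood apart. In the lines it read 39.9, 67.5 and 15.7 CPM (heavy) and 37.9, 36.3 and 16.1 CPM (light) (log2 fold change 0.95, SE 0.36, adjusted p = 0.0813). All 4 libraries of lines 1 and 2 exceeded the highest wild-type library. Line 3 lay within the range of all wild-type libraries, though in heavy medium below the heavy ones. The fold change was 1.09 in line 1 (adjusted p = 0.00868), 1.495 in line 2 (adjusted p = 0.0111) and -0.20 in line 3 (adjusted p = 0.639), on the log2 scale. BTG1, its close relative, gave 58.1, 63.03 and 65.8 CPM (heavy) and 52.9, 59.4 and 62.7 CPM (light) in wild type and smaller differences. Its values were 73.9, 68.9 and 58.9 CPM (heavy) and 72.4, 63.2 and 57.2 CPM (light) in the lines, with line 1 in both media and line 2 in heavy medium above every wild-type library (line 1: log2 fold change 0.27, adjusted p = 0.01). TOB1 overlaps the antisense gene TOB1-AS1, whose reads could be shared in these counts. TOB2 ranged from 13.3 to 16.7 CPM in wild type and 13.6 to 16.4 CPM in knockout.

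The cytoplasmic poly(A)-binding proteins coat the tail and meet both deadenylase complexes. PABPC1 stood at 1153, 1169 and 1124 CPM (heavy) and 1187, 1183 and 1198 CPM (light) in wild type. In the lines it stood at 1244, 1217 and 1248 CPM (heavy) and 1252, 1178 and 1228 CPM (light), above every wild-type library except in line 2 in light medium, without passing (log2 fold change 0.07, SE 0.034, adjusted p = 0.133). PABPC4 ranged from 245 to 274 CPM in wild type and from 237 to 269.6 CPM in knockout.

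No member of the decapping group passed over both media. An unadjusted p under 0.05 was found for 3 of the 8, and for 6550 of 16704 genes tested. DDX6, a helicase that joins CCR4-NOT to decapping, was at 236, 220.4 and 206 CPM (heavy) and 223, 212 and 223 CPM (light) in wild type. Its values in the lines were 199.6, 200.4 and 203 CPM (heavy) and 214, 211 and 204 CPM (light) (log2 fold change -0.10, SE 0.04, adjusted p = 0.0758). All 6 knockout libraries were below the wild-type mean of their medium, and line 1 in light medium was the one that lay among the wild-type libraries of its medium. DCP1A, the cofactor of DCP2, gave 50.6, 49.9 and 44.6 CPM (heavy) and 51.2, 46.9 and 48.7 CPM (light) in wild type. The lines gave 44.2, 40.8 and 47.8 CPM (heavy) and 43.01, 40.5 and 48.3 CPM (light), with lines 1 and 2 below and line 3 within the wild-type range (log2 fold change -0.14, SE 0.058, adjusted p = 0.0848). EDC4, the scaffold of the decapping complex, read 61.9, 66.3 and 68.1 CPM (heavy) and 66.96, 67.4 and 63.4 CPM (light) in wild type. In lines 1, 2 and 3 it read 65.1, 57.3 and 60.2 CPM (heavy) and 60.7, 58.8 and 64.3 CPM (light) (log2 fold change -0.10, SE 0.045, adjusted p = 0.103), and line 2 in both media, line 1 in light and line 3 in heavy medium were below all wild-type libraries. DCP2, the enzyme itself, had wild-type values of 95.6, 85.8 and 86.5 CPM (heavy) and 87.5, 83.7 and 92.7 CPM (light). The lines had 79.1, 87.99 and 85.8 CPM (heavy) and 72.02, 83.8 and 84.1 CPM (light), line 1 being lowest in both media (log2 fold change -0.11, SE 0.052, adjusted p = 0.132). EDC3, an assembly factor of decapping granules, was at 85.3, 84.4 and 81.8 CPM (heavy) and 91.3, 88.2 and 86.3 CPM (light) in wild type. It was at 78.1, 72.3 and 93.1 CPM (heavy) and 82.99, 84.6 and 81.6 CPM (light) in the lines, where line 3 in heavy medium was the highest of the 12 libraries (log2 fold change -0.07, SE 0.053, adjusted p = 0.351). DCP1B, LSM1 of the ring that binds shortened tails, and PATL1 had knockout ranges of 13.7 to 16.2, 40.9 to 46.3 and 49 to 52.2 CPM beside wild-type ranges of 13.5 to 15.96, 39.6 to 43.2 and 47.03 to 53.5 CPM.

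Among the exonucleases 1 of 3 fell. EXOSC10, a 3′-to-5′ exonuclease of the nuclear exosome (ENSG00000171824.13, chromosome 1, 11066618 to 11099881, minus strand), read 111, 113 and 109.7 CPM (heavy) and 104, 103 and 102 CPM (light) in wild type. The lines read 103, 97.5 and 94.6 CPM (heavy) and 91.4, 95.2 and 96.97 CPM (light), each below the wild-type libraries of its medium (log2 fold change -0.15, SE 0.036, adjusted p = 0.0112). Its fold changes in the 3 lines were -0.15, -0.16 and -0.17 on the log2 scale, with adjusted p of 0.04, 0.0156 and 0.0672. XRN1, the cytoplasmic 5′-to-3′ exonuclease, had wild-type values of 24.1, 19.6 and 17.6 CPM (heavy) and 20.6, 18.7 and 19.9 CPM (light). Its values in the lines were 21.3, 27.3 and 19.9 CPM (heavy) and 23.9, 23.2 and 21.9 CPM (light) (log2 fold change 0.19, SE 0.087, adjusted p = 0.12). Line 2 in heavy medium was above every wild-type library, and the other 5 were within the range of all wild-type libraries. In light medium each line was above the light wild-type libraries (log2 fold change 0.22, adjusted p = 0.142). DIS3, the main exosome nuclease, ranged from 94.8 to 108 CPM in wild type and 93.8 to 113 CPM in knockout.

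Of the 9 silencing and RNA-binding genes AGO2 fell and MOV10 rose. AGO2, the Argonaute that can cut its target (ENSG00000123908.11, chromosome 8, 140520156 to 140635619, minus strand), read 116, 105 and 99.8 CPM (heavy) and 106, 108 and 108 CPM (light) in wild type. The 3 lines read 91.99, 90.7 and 94.7 CPM (heavy) and 87.1, 82.8 and 98.9 CPM (light), each below the wild-type libraries of its medium. It went from 107 ± 5.204 to 91.03 ± 5.64 CPM (SD, n = 6 libraries each, log2 fold change -0.23, SE 0.05, adjusted p = 0.00603), the smallest p of the 39. Its log2 fold change was -0.27, -0.31 and -0.15 in lines 1, 2 and 3, of which line 3 did not pass (adjusted p = 0.128). AGO1 gave 81.5, 80.2 and 74.5 CPM (heavy) and 77.6, 81.6 and 80.4 CPM (light) in wild type. The lines gave 76.5, 70.1 and 75.5 CPM (heavy) and 75.6, 64.6 and 77.1 CPM (light), line 2 being lowest in both media (log2 fold change -0.11, SE 0.05, adjusted p = 0.105).

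MOV10, a helicase that associates with Argonaute and FMRP (ENSG00000155363.18, chromosome 1, 112673141 to 112700746, plus strand), stood at 25.7, 23.04 and 28.95 CPM (heavy) and 22.95, 25.9 and 25.8 CPM (light) in wild type. Lines 1, 2 and 3 stood at 31.1, 39.8 and 26.1 CPM (heavy) and 37.1, 36.3 and 26.6 CPM (light). The libraries of lines 1 and 2 were above every wild-type library. Those of line 3 were within the range of all wild-type libraries, with line 3 in light medium above the light ones. The rise from 25.4 ± 2.22 to 32.8 ± 5.76 CPM passed over all libraries (log2 fold change 0.37, SE 0.11, adjusted p = 0.026) but was lost when any of 8 single libraries was left out: wild-type heavy 1 or 2, wild-type light 1, 2 or 3, line 2 heavy, line 1 light or line 2 light. MOV10 also overlaps AL603832.1 on the other strand. The adjusted p over those 8 fits reached 0.0677. STAU1, a double-stranded RNA-binding protein of transport granules, read 203, 205 and 195 CPM (heavy) and 216, 201 and 204 CPM (light) in wild type. It read 189.8, 178 and 217 CPM (heavy) and 184, 188 and 203 CPM (light) in the lines, with lines 1 and 2 below wild type and line 3 within or above it (log2 fold change -0.08, SE 0.05, adjusted p = 0.264). The remaining genes had overlapping ranges, with the TNRC6 scaffolds TNRC6A, TNRC6B and TNRC6C at 57.7 to 82.7, 17.9 to 22.6 and 40.3 to 56.3 CPM in knockout and 70.04 to 80.9, 14.9 to 20.1 and 47.8 to 53.1 CPM in wild type. The repressor PUM2 ranged from 172 to 194 CPM in knockout and 173 to 204 CPM in wild type, and STAU2 from 52.7 to 64.8 and 50.5 to 63.6 CPM.

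Across the 39 members CNOT3, CNOT6, EXOSC10 and AGO2 were the 4 for which every knockout library lay under all wild-type libraries of that medium. Of all genes tested 5.47% did so. For 0 members did every knockout library lie above that range, against 8.08% of all genes. These 4 kept an adjusted p under 0.05 in each fit that left out a single library.

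**Figure D3:**
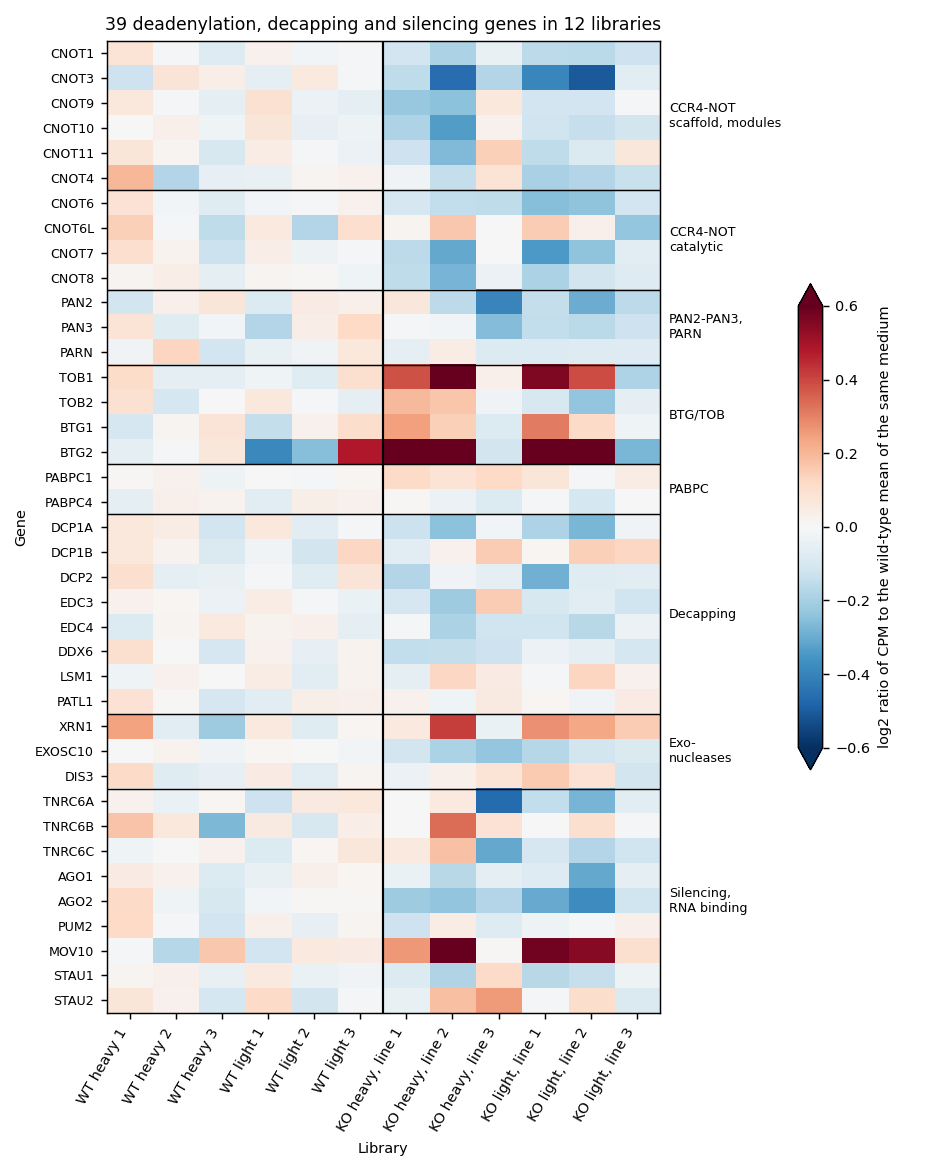
Log2 ratio of CPM to the wild-type mean of the same medium for the 39 genes (rows, by role) in 12 libraries (columns), blue lower and red higher, with colour limits at 0.6 either way. In lines 1 and 2 every CCR4-NOT gene except CNOT6L is negative in all 4 libraries, with CNOT4 pale in line 1 heavy (-0.02). TOB1, BTG2 and MOV10 are red in those lines. In line 3 they are pale, except that TOB1 and BTG2 are light blue in light medium (-0.18 and -0.27).

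The lines were then set against wild type one at a time, 2 libraries against 6 with medium as a covariate. These comparisons share the 6 wild-type libraries. The pairing of the libraries of line 1 rests on the label, as their deviations were less alike than those of lines 2 and 3 (r = 0.089, 0.618 and 0.661). In line 1, 13 members passed, 4 higher and 9 lower, where 27.9% of all genes passed (14.5% higher and 13.3% lower). In line 2, 20 passed, 4 higher and 16 lower, where 45.3% of all genes passed (23.2% higher and 22% lower). In line 3, 1 passed, lower, where 7.52% of all genes passed (3.99% higher and 3.54% lower). Within CCR4-NOT 6 of 10 subunits fell in line 1, 8 of 10 in line 2 and 0 of 10 in line 3. In line 3 an unadjusted p under 0.05 was found for 1 of 10, and for 3417 of 16459 genes tested. With DESeq2 0 of 10 also passed in line 3. CNOT9 fell in lines 1 and 2 (log2 -0.18 and -0.19), CNOT10 and CNOT11 in line 2 (-0.24 and -0.18), and the 5 subunits that passed over all lines fell in both. The medians of the log2 ratio over the 10 subunits in lines 1, 2 and 3 were -0.138, -0.254 and -0.002 (heavy) and -0.173, -0.150 and -0.094 (light). Wild-type libraries had medians from -0.066 to 0.076. Each of them is part of the mean it is set against, which narrows this range, so a place just outside it is no test. Both libraries of lines 1 and 2 were below that range, line 3 in heavy medium was inside it and line 3 in light medium was just below it.

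Outside CCR4-NOT, EXOSC10, AGO2, TOB1, BTG2 and MOV10 passed in both line 1 and line 2. The other genes passed in 1 line or, for PAN2, in lines 2 and 3, and for those named next the test among lines, described below, did not pass (adjusted p from 0.187 for STAU1 to 0.614 for EDC4). DCP2 passed in line 1 alone (log2 -0.24, adjusted p = 0.0104) and stood at -0.05 and -0.07 in lines 2 and 3. PAN2 passed in lines 2 and 3 (-0.23 and -0.28) and stood at -0.04 in line 1. DCP1A, EDC3, EDC4, AGO1 and STAU1 fell in line 2 (-0.27, -0.15, -0.19, -0.24 and -0.17), and XRN1 rose there (0.32, adjusted p = 0.00889). The count in line 1 was 2 without its light library and 8 without its heavy library, wild-type heavy 2 or wild-type light 1. In line 2 it was 10 without its heavy library. The single call in line 3 was lost without its heavy library or wild-type heavy 2, light 2 or light 3, and the count was 2 without its light library and 3 without wild-type light 1.

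**Figure D4:**
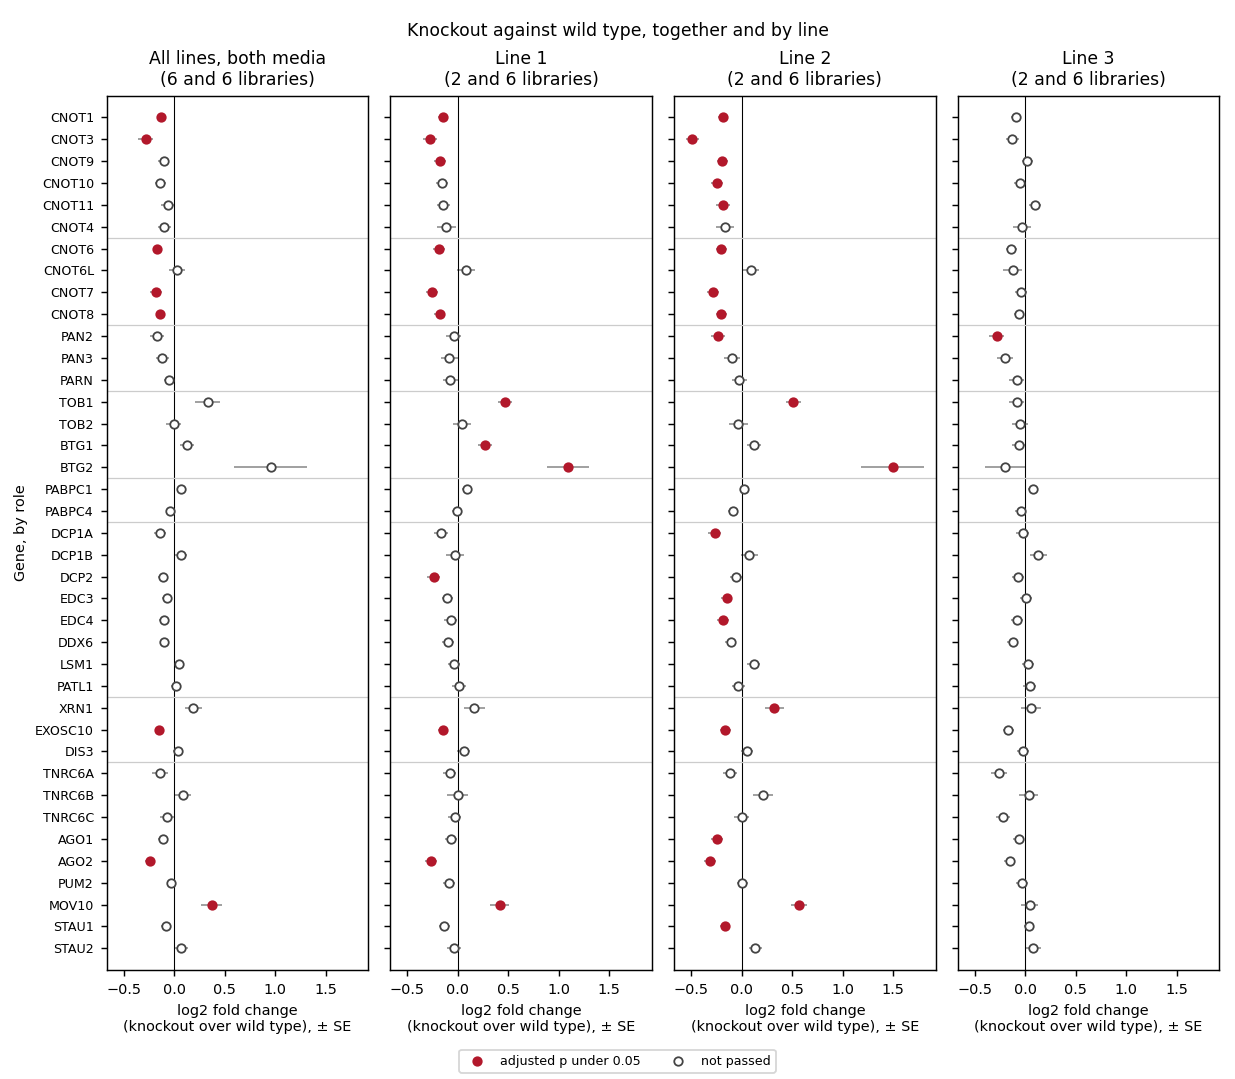
Log2 fold change of knockout over wild type with its SE for the 39 genes, over all lines and both media and for each line, filled where the adjusted p was under 0.05. The number of filled points goes from 13 in line 1 and 20 in line 2 to 1 in line 3, and 8 are filled over all lines.

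Whether the lines differed was tested among the 6 knockout libraries alone. TOB1 (adjusted p = 0.0109), MOV10 (0.0228), BTG2 (0.0397) and BTG1 (0.0479) passed in edgeR, 4 of 39, where 12.7% of all genes passed. In all 4 both libraries of line 3 were lower than the libraries of lines 1 and 2. None of the 10 CCR4-NOT subunits passed, CNOT3 being nearest with an adjusted p of 0.0537, so the lack of calls for the complex in line 3 is not shown to be a difference from lines 1 and 2. This test has 2 residual degrees of freedom, and the count was 1 without line 2 heavy, line 2 light or line 3 light and 2 without line 3 heavy.

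**Figure D5:**
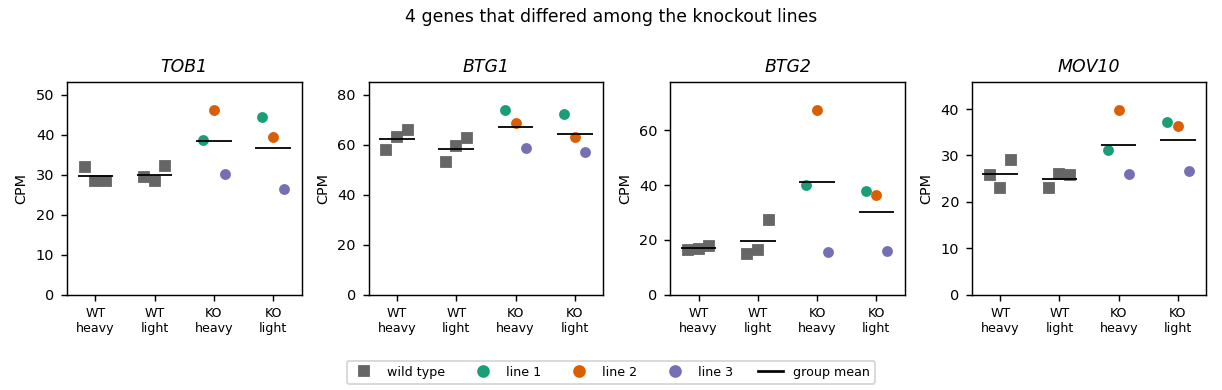
CPM of TOB1, BTG1, BTG2 and MOV10 in each library, with axes from 0, squares for wild type, circles coloured by line and bars for group means. Lines 1 and 2 lie above line 3 in both media for each gene, and the BTG2 library of line 2 in heavy medium is highest at 67.5 CPM.

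Taken by medium, with 3 libraries against 3, no member passed. In heavy medium 0 of 39 passed in edgeR and 0 in DESeq2, and 0.112% of all genes passed in edgeR. An unadjusted p under 0.05 was found for 4 of 39, and for 2885 of 16083 genes tested. In light medium 0 of 39 passed in edgeR, where 1.44% of all genes passed (0.906% higher and 0.537% lower), and AGO2 and MOV10 passed in DESeq2. An unadjusted p under 0.05 was found for 11 of 39, and for 4040 of 16010 genes tested. The median log2 fold change of the 10 CCR4-NOT genes was -0.14 in each medium. CNOT3 had -0.26 and -0.31 in heavy and light medium, AGO2 -0.21 and -0.27, MOV10 0.31 and 0.42, and BTG2 1.28 and 0.62 (log2). Without line 3 the count was 3 in heavy medium, TOB1, BTG2 and MOV10, and 15 in light medium. The interaction of genotype and medium passed for 0 of 39 members and 0% of all genes in edgeR, and for 0 members in DESeq2. An unadjusted p under 0.05 was found for 0 members, and for 149 of 16704 genes tested.

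No member passed between the media. Heavy against light medium gave 0 of 39 in wild type, where 0.00631% of all genes passed. An unadjusted p under 0.05 was found there for 1 of 39, and for 808 of 15845 genes tested. In knockout the same comparison gave 0 of 39, where 0% of all genes passed, and 0 unadjusted, where 138 of 16206 genes had an unadjusted p under 0.05. DESeq2 also gave 0 in both. The largest difference between media in wild type was that of BTG2 (log2 -0.19, SE 0.21), and in knockout also that of BTG2 (0.45, SE 0.6).

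Other genes of the pathway, taken from lists of 73 symbols that were all found and of which 71 were tested, gave 7 rises and 12 falls over both media (26.8% called). That share is near the 24.8% of all genes tested (15% higher and 9.78% lower), so these counts do not set the lists apart. Of 25 further silencing and recruiting genes 3 rose and 5 fell. DICER1, the nuclease that makes mature microRNAs, stood at 90.04, 79.9 and 75.6 CPM (heavy) and 77.5, 76.8 and 79.6 CPM (light) in wild type. In lines 1, 2 and 3 it stood at 61.97, 59.97 and 61.6 CPM (heavy) and 59.7, 54.9 and 60.9 CPM (light), below every wild-type library in each (log2 fold change -0.42, SE 0.047, adjusted p = 0.000226), and it kept its call with 1 summed sample per line (adjusted p = 0.0245). Its fold changes were -0.40, -0.48 and -0.39 in the 3 lines. RC3H2, a Roquin protein that brings CCR4-NOT to stem-loops, and SAMD4B, a Smaug-type repressor, fell (-0.22 and -0.27 log2). CPEB1, which regulates polyadenylation in the cytoplasm, went up from 1.32 ± 0.131 to 2.51 ± 0.709 CPM (SD, n = 6 libraries each, log2 fold change 0.91, SE 0.19, adjusted p = 0.00515).

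Of 19 exosome and SKI genes 2 rose and 2 fell. The exosome ring genes EXOSC9 and EXOSC8 fell by 0.21 and 0.19 on the log2 scale (adjusted p = 0.0151 and 0.0159), while the cytoplasmic nuclease gene DIS3L (0.18) and the SKI subunit gene WDR61 (0.12) rose. The DIS3L call was lost without wild-type light 2 or line 1 light. That of WDR61 was lost without any one of 10 of the 12 libraries, all but the 2 of line 3 (adjusted p up to 0.0943). Of 7 tested further deadenylases, relatives of deadenylases and CCR4-NOT partners 1 rose and 2 fell. NOCT, a circadian relative of CNOT6, fell from 9.98 ± 0.652 to 7.56 ± 1.27 CPM (log2 fold change -0.40, SE 0.1, adjusted p = 0.0144). ANGEL1 fell (-0.26) and TNKS1BP1, which copurifies with CCR4-NOT, rose (0.33). Whether NOCT and ANGEL1 shorten tails in these cells was not tested. The ANGEL1 call was lost without wild-type light 1, line 2 heavy, line 1 light or line 2 light, and the TNKS1BP1 call without wild-type light 2 or 3 or those same 3 knockout libraries. Of 12 tested further decapping and P-body genes LSM14B fell (-0.15) and NUDT16 rose (0.21). The fold change over both media was negative for 11 of the 12, and for 8261 of 16704 genes tested. In line 3 it was negative for 6 of the 12. Whether the list leans to lower levels was not tested. The LSM14B call was lost without wild-type heavy 2 or light 2, line 2 heavy, line 1 light or line 2 light (adjusted p up to 0.0585). That of NUDT16 was lost without any one of 9 libraries, all but wild-type heavy 3 and the 2 of line 3 (up to 0.0758). Of 8 regulators of poly(A)-binding proteins the inhibitors PAIP2 (-0.24) and PAIP2B (-0.35) fell and 0 rose. The PAIP2B call was lost without wild-type light 3, line 1 light or line 2 light, and the PAIP2 call without any one wild-type light library, line 2 heavy, line 1 light or line 2 light. With 1 summed sample per line DICER1 alone of the 15 pathway genes named here passed, and the others had adjusted p from 0.0622 for RC3H2 to 0.186 for WDR61.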

How the data were processed

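The deposited table holds whole-number counts per gene, not normalized, in 12 libraries made with a stranded mRNA kit, per the labels. The submitters' processing notes name bcl2fastq 2.19.0, STAR 2.7.0f, Subread 1.6.4 with featureCounts, DESeq2 1.22.1, R 3.5.1 and GRCh38.p13, without their settings. No source used here gives the annotation, the strand setting or the treatment of multiply mapped reads, so overlapping genes and close paralogs may share counts. Counts were tested with edgeR 4.0.16 in R 4.3.3 (TMM, filterByExpr, robust quasi-likelihood fits, Benjamini-Hochberg adjustment over all genes tested, threshold 0.05). SEs were derived from the F statistic. Alternatives used DESeq2 1.42.0 and limma 3.58.1. The fits were tested on simulated data. Positions and exon lengths came from GENCODE release 29 on GRCh38, promoters from RefSeq on GRCh38.p14. The members and lists were chosen with earlier results of these data known.

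Values in every library are given for 24 members: those past 0.05 in any comparison, the 16 smallest p over both media and at least 1 per role. The other 15 are given as ranges. Of the pathway lists, up to 4 genes each with the smallest p past 0.05 are named. Per the labels, same-numbered knockout libraries are the same line in both media, which pairs the media in knockout. Deviations from the group means correlated at r = 0.089, 0.618 and 0.661 for lines 1, 2 and 3 (across genes, which are not independent). The heavy libraries of lines 2 and 3 correlated best with their own light library, while that of line 1 correlated best with another line. That the libraries of line 1 are the same line rests on the label alone. Other shared numbers had r between -0.118 and 0.056 and are taken as numbers only.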

Additional observations from a re-analysis of the deposited data

Results flagged for a closer look

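Among 78 sets of 6 libraries (39 members in wild type and in knockout) 3 had a library far from the other 5 by Dixon's criterion. Chance flags about 1 in 20 such sets. BTG2 in wild-type light 3 was at 27.2 CPM, the other wild-type libraries at 14.9 to 17.7 CPM. TNRC6A in wild-type light 1 was at 70.0 CPM, the others at 77.3 to 80.9 CPM. PARN in knockout line 2 heavy was at 39.2 CPM, the others at 35.5 to 36.7 CPM.

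The test among the knockout lines passed for TOB1 (edgeR adjusted p = 0.0109), BTG1 (0.0479), BTG2 (0.0397) and MOV10 (0.0228). Of other named pathway genes it passed for SAMD4B (0.0448), CPEB4 (0.00542) and PAIP2 (0.036).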

How the results depend on the processing

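Fold changes over both media of the 24 members given by library and of 17 pathway genes kept their direction under each of 23 alternatives. Of these alternatives 12 left out only 1 library, and the genes were chosen by their p or values, which favours a kept direction. In line 3 alone some members stood against their direction over both media. TOB1, BTG1 and BTG2 were negative there (log2 -0.08, -0.06 and -0.20), and CNOT9, CNOT11, EDC3 and STAU1 positive (0.02, 0.10, 0.01 and 0.03). CNOT6L was not among the 24 members, and its log2 fold change was 0.03 over both media and -0.014 in light medium. Scaling moved the median of all genes by under 0.01 (log2: 0.0029 with TMM, -0.006 with RLE, -0.002 with library size alone, the last chosen after seeing the data). AGO2, EXOSC10 and CNOT6 passed in 22 of 23 and failed on counts summed per line. Counts of members called over both media (8) stayed between 6 and 11 under 10 alternatives. They were 5 with no filter on low counts, 0 on counts summed per line, 5, 3 and 19 without lines 1, 2 and 3, and 4 to 15 with single libraries left out. In heavy medium (0) they were 0 to 3 with single libraries left out. In light medium (0) they were 2 with DESeq2, 2 with no filter and 0 to 15 with single libraries left out. Leaving out single libraries gave 2 to 15 in line 1 (13), 10 to 21 in line 2 (20), 0 to 3 in line 3 (1) and 1 to 6 among lines (4). In line 3 the count was 3 with DESeq2, 3 with no filter and 0 with 1 spread shared by all 12 libraries. The cause of these changes was not tested. Both media contrasts and the interaction gave 0 under every alternative run. With the replicate number as a block the count over both media was 8. It was 0 in heavy medium, light medium, both contrasts of media and the interaction, so the block changed no count of members. Between genotypes this block joins a knockout line to wild-type libraries that share only its number, so there it is no check on the line. WDR61 had an adjusted p of 0.0525 with that block. With the line as a correlated block in limma-voom the count over both media was 6, without CNOT7 and CNOT8. A line left with 1 library was fitted with the spread of the other libraries. Changes as small as those named here rest on 3 libraries or lines a group, and a p that misses the threshold does not show equal levels.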

Other observations

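SAMD4A and CPEB4, named after their values were seen, had the widest differences of the pathway lists at levels over 5 CPM. SAMD4A, a Smaug-type repressor that recruits CCR4-NOT to stem-loops, stood at 5.44, 5.29 and 4.95 CPM (heavy) and 4.89, 4.96 and 5.66 CPM (light) in wild type. Lines 1, 2 and 3 stood at 20.03, 51.9 and 7.16 CPM (heavy) and 36.8, 41.1 and 5.96 CPM (light), so lines 1 and 2 were far above wild type and line 3 was near it (log2 fold change 2.38, SE 0.55, adjusted p = 0.0149, and 0.125 on counts summed per line). CPEB4, a cytoplasmic polyadenylation element-binding protein, read 28.5, 24.4 and 23.4 CPM (heavy) and 26.9, 24.6 and 27.7 CPM (light) in wild type. It read 38.3, 73.4 and 29.2 CPM (heavy) and 58.4, 73 and 28.5 CPM (light) in the lines (log2 fold change 0.95, SE 0.26, adjusted p = 0.0263), again highest in line 2 and near wild type in line 3. Its call was lost on counts summed per line (adjusted p = 0.155) and without wild-type heavy 2 or 3, any one wild-type light library, line 2 heavy, line 1 light or line 2 light (up to 0.0621).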
